A study of Rattus norvegicus with 8 samples.

Results

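The genes described here are Toll-like receptors and the proteins that work directly with them, chosen by name: Tlr2, Tlr4, Tlr7, Tlr9, Cd14, Ly96 and Myd88. Of the 7, 6 were found by symbol among the 32623 genes of the count tables, and Ly96 was not analysed here. Their unique molecular identifiers (UMIs), each marking 1 captured RNA molecule, were followed across cell types and injury groups in single cells of the rat spinal cord. The animals were female Wistar rats, 8 weeks old, and tissue was taken 7 days after surgery. Every rat had a laminectomy at T9, which was the whole procedure in the sham group. A 10 g weight was then dropped on the exposed cord in the injured groups, called mild, moderate and severe by rising drop height. A 10 mm segment was dissociated for droplet-based sequencing, and each group had 2 libraries, called replicates 1 and 2. The study speaks of as many sequenced cords as there are libraries, but the labels do not tie a library to an animal, so p-values measure the spread between these libraries, which may in part be technical.

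Toll-like receptors recognise microbial products and molecules released from damaged cells. Tlr2 and Tlr4 sit in the outer membrane, where Tlr2 binds lipopeptides and Tlr4 binds lipopolysaccharide with the help of Cd14, which hands the lipid over, and Ly96, its partner protein. Tlr7 and Tlr9 work inside endosomes, where Tlr7 binds single-stranded RNA and Tlr9 binds DNA with unmethylated CpG. All 4 receptors signal through the adaptor Myd88 to NF-kappaB and to inflammatory cytokines, and in the central nervous system they are best known from microglia and infiltrating myeloid cells.

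A total of 68658 cells were deposited and 55460 were kept after quality control, with 23535282 to 99708000 UMIs per library. Cells were assigned to a type by the share of its marker genes that had a UMI, and 44839 cells, 80.8% of those kept, received 1 of 14 types. None of the genes described here was a marker. The types are called "-like" because they rest on these markers alone. The macrophage/microglia-like cells were the largest class with 28007 cells. Of their 12 markers, 11 were at their highest level in that class, which the gate itself favours because it uses these markers. The exception, Fcgr1a, was highest in neutrophil-like cells. Among the neutrophil markers Lcn2 and Ltf, and among the plasmacytoid dendritic markers Cox6a2 and Upb1, were also highest in other classes. The neutrophil-like class held 6038 cells and the plasmacytoid dendritic-like class 458. Conventional dendritic-like cells numbered 16, under 20 in every library, and are left out below. Within the macrophage/microglia-like cells, 6964 were assigned by markers of resident microglia and 12561 by macrophage markers, and the other 8482 met neither rule. The macrophage list named Fn1, Vcan and Ccr2 beside Cd163, Mrc1 and Lyve1, so that class is not limited to infiltrating cells. Of 68095 distinct barcodes, 555, or 0.815%, occurred in more than 1 library.

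The sham libraries differed from each other. Sham replicate 1 held 3876 neutrophil-like cells against 1 in sham replicate 2, and 587 macrophage/microglia-like cells against 2098. Microglia-marker cells were 33.7% of the macrophage/microglia-like cells in sham replicate 1 and 85.1% in sham replicate 2. In the 6 injured libraries this share ran from 5.42% in moderate replicate 2 to 26.6% in mild replicate 2. Results are therefore also given within microglia-marker and macrophage-marker cells, and without each sham library. A level below is the UMIs of a gene per 1000000 UMIs of that cell type in a library (CPM), so that fewer molecules of a gene and more molecules of all others cannot be told apart.

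**Figure D1:**
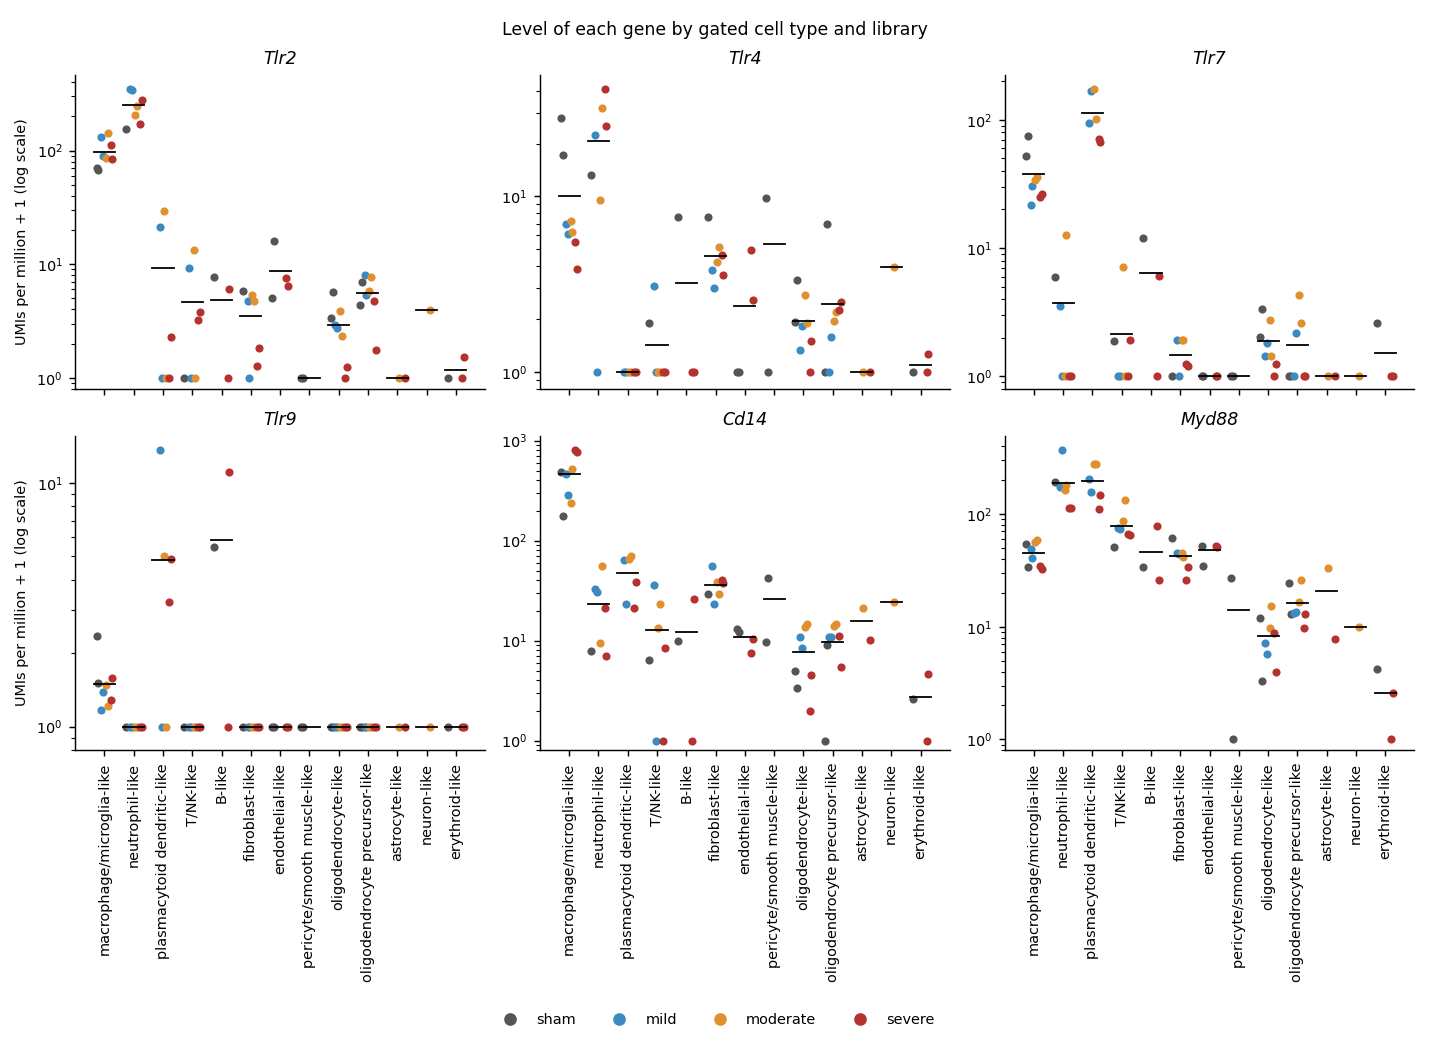
Level of each gene (CPM + 1, log scale) in the 13 gated cell types with at least 20 cells in a library; each point is a library, coloured by injury group, and the black line is the mean over libraries. Tlr2 and Cd14 stood high in few myeloid types, Tlr7 in plasmacytoid dendritic-like and macrophage/microglia-like cells, and Myd88 was spread over most types.

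Macrophage/microglia-like cells supplied most of the UMIs of all 6 genes. They held 96.3% of the 156971 UMIs of Cd14, 94.9% of the 11217 UMIs of Tlr7, 88.3% of the 38211 UMIs of Tlr2, 85.4% of the 158 UMIs of Tlr9, 77.8% of the 2628 UMIs of Tlr4 and 66.3% of the 22614 UMIs of Myd88. These shares follow the number of cells as well as the level per cell. Neutrophil-like cells came next for Myd88 with 11.7%, Tlr4 with 8.22% and Tlr2 with 6.43%. The level in CPM gave another order.

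Tlr2 was highest in neutrophil-like cells, at 248 ± 77.2 CPM (SD, n = 7 libraries), followed by macrophage/microglia-like cells at 97.0 ± 28.0 CPM (n = 8). The ranges, 154 to 347 CPM and 66.6 to 142 CPM, did not overlap. Every other class had a mean under the 8.28 ± 12.6 CPM of plasmacytoid dendritic-like cells (n = 6), whose range from 0 to 28.1 CPM overlapped those below it. The 3 genes whose pattern over the 13 types was most like that of Tlr2 were Tlr13, an endosomal receptor for bacterial ribosomal RNA, Fcgr1a, a high-affinity IgG receptor that was itself a gate marker, and Osm, a cytokine, with Pearson r of 0.96, 0.95 and 0.95 among 11295 genes. Likeness here is that of log2(CPM + 1) over 13 type means, which share libraries and depth.

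Tlr4 was low everywhere. Its mean was 19.6 ± 13.7 CPM in neutrophil-like cells (n = 7, range 0 to 40.1) and 9.11 ± 8.22 CPM in macrophage/microglia-like cells (n = 8, range 2.87 to 26.8), and these ranges overlapped. Fibroblast-like cells had 3.58 ± 1.54 CPM (n = 7). No UMI of Tlr4 was found among the 2619931 UMIs of plasmacytoid dendritic-like cells in 6 libraries, where 3 counts would be 1.15 CPM. The genes most like Tlr4 were AABR07002674.1, F5, which encodes coagulation factor V, and Ccrl2, an atypical chemokine receptor, with r of 0.92, 0.89 and 0.88.

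Tlr7 was highest in plasmacytoid dendritic-like cells, the cells known for Tlr7-driven interferon production, at 112 ± 46.9 CPM (n = 6, range 66.1 to 173). Macrophage/microglia-like cells had 36.6 ± 17.8 CPM (n = 8, range 20.6 to 73.8), and the ranges overlapped only through sham replicate 2, which had under 20 plasmacytoid dendritic-like cells and so no value for them. B-like cells followed at 5.37 ± 5.54 CPM (n = 3) and neutrophil-like cells at 2.72 ± 4.35 CPM (n = 7), with overlapping ranges. Plekhm3, Trim55 and Slamf9 had the most similar patterns, with r of 0.96, 0.95 and 0.95.

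Tlr9 had 158 UMIs in all, too few for a level in most libraries. B-like cells had 4 UMIs, or 4.83 ± 5.04 CPM (n = 3), and plasmacytoid dendritic-like cells 11 UMIs, or 3.80 ± 4.69 CPM (n = 6). The 135 UMIs in macrophage/microglia-like cells came to 0.50 ± 0.37 CPM (n = 8). No UMI was found in neutrophil-like cells in 7 libraries or in oligodendrocyte-like cells in 8. No type reached the 10 CPM set for naming similar genes.

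Cd14, the co-receptor that loads lipopolysaccharide onto Tlr4, had its highest level in macrophage/microglia-like cells, at 466 ± 230 CPM (n = 8, range 175 to 796). Plasmacytoid dendritic-like cells had 46.2 ± 22.3 CPM (n = 6) and fibroblast-like cells 35.1 ± 10.6 CPM (n = 7), and neither range reached the lowest macrophage/microglia-like library. Neutrophil-like cells had 22.3 ± 17.5 CPM (n = 7). The nearest patterns were those of Man1c1 and Galns, both enzymes that act on glycans, and Hmox1, which degrades haem, with r of 0.88, 0.88 and 0.86.

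Of the 6 genes, Myd88 had the smallest share of its UMIs in macrophage/microglia-like cells, at 66.3%. Plasmacytoid dendritic-like cells, at 195 ± 70.4 CPM (n = 6), and neutrophil-like cells, at 186 ± 85.8 CPM (n = 7), had overlapping ranges. T/NK-like cells followed at 78.0 ± 26.5 CPM (n = 7), and macrophage-marker, endothelial-like, B-like, fibroblast-like and microglia-marker cells lay between 40.1 and 46.7 CPM with overlapping ranges. Oligodendrocyte-like cells had 7.24 ± 4.09 CPM (n = 8). Tnfaip8, Prkab1 and Stk24 were closest in pattern, with r of 0.94, 0.92 and 0.92.

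The share of cells with at least 1 UMI was compared after each cell had been thinned to 1000 UMIs, which removed 646 macrophage/microglia-like and 1416 neutrophil-like cells below that depth. In macrophage/microglia-like cells the mean share over 8 libraries was 31.7% ± 12.1 for Cd14, 9.47% ± 2.54 for Tlr2, 4.56% ± 1.30 for Myd88, 3.65% ± 1.50 for Tlr7, 0.89% ± 0.72 for Tlr4 and 0.026% ± 0.021 for Tlr9. Erythroid-like cells, which should lack these genes and show what free RNA gives, had 4 of 1130 thinned cells with a UMI of Cd14 and 4 with one of Myd88, or 0.354% each (exact Clopper-Pearson 95% interval 0.097% to 0.904%). They had 1 cell with Tlr4 and none with Tlr2, Tlr7 or Tlr9, where 3 cells would be 0.265%. Of 1230 erythroid-like cells before thinning, 1003 were in severe replicate 2, so these values mostly describe that library. The median depth was 10728 UMIs in macrophage/microglia-like and 6638 UMIs in erythroid-like cells. Without thinning, 56.1% ± 12.7 of macrophage/microglia-like cells had a UMI of Tlr2, 28.5% ± 8.70 of Tlr7 and 8.51% ± 5.15 of Tlr4. Intervals and limits from counts cover counting error only.

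The first question of the design was how injury changed these genes in macrophage/microglia-like cells. Tlr4 was the only 1 of the 6 genes to pass the test in any injured group, and it was lower than in sham in all 3. Its level was 26.8 and 16.2 CPM in the sham libraries, 5.96 and 5.10 CPM in the mild, 6.22 and 5.26 CPM in the moderate and 4.47 and 2.87 CPM in the severe libraries. Both sham libraries lay above all 6 injured libraries, and the 3 injured groups lay close together. Summed counts of each library were fitted with all 4 groups, and edgeR's quasi-likelihood test with Benjamini-Hochberg adjustment over 13489 genes was used. The log2 fold change of Tlr4 was -1.82 ± 0.32 (SE) in the mild group (adjusted p = 0.024), -1.83 ± 0.32 in the moderate group (adjusted p = 0.0347) and -2.03 ± 0.32 in the severe group (adjusted p = 0.0131), or 3.53-fold, 3.55-fold and 4.10-fold lower. The test called 1 of 6 genes in each comparison, beside 6.16% of all genes in mild against sham, 2.33% in moderate against sham and 8.27% in severe against sham.

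**Figure D2:**
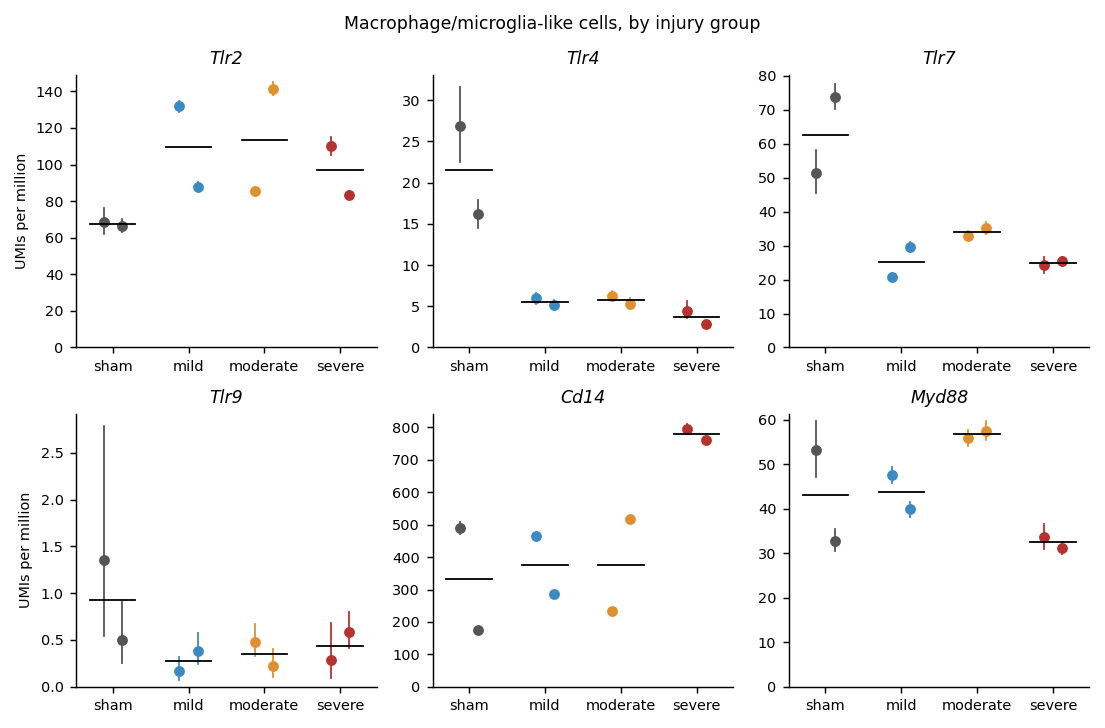
Level of each gene (CPM, linear axis from 0) in macrophage/microglia-like cells of each library, by injury group; vertical lines are exact 95% counting intervals and black lines are group means of 2 libraries. Both sham libraries lie above all injured libraries for Tlr4 and for Tlr7, and both severe libraries above all others for Cd14.

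The direction of the Tlr4 difference held in every setting tried, but its call did not. It was lost in all 3 comparisons when only the 2 groups compared were fitted, with log2 fold changes of -1.84, -1.87 and -2.10, a setting in which 0, 0 and 114 of all genes were called. Leaving out mild replicate 1 or 2 ended the mild call (-1.93 and -1.72), and leaving out severe replicate 1 or 2 ended the severe call (-2.29 and -1.80). The moderate call ended without any 1 of the 6 injured libraries (-1.99 to -1.71). Each of these fits left 1 library in a group and called a smaller share of all genes than the main fit. Without sham replicate 1 the values were -1.59, -1.61 and -1.82, and without sham replicate 2 they were -1.98, -2.00 and -2.20. Those fits left 1 sham library each.

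Neutrophil-like cells also carried Tlr4, so neutrophil RNA among the macrophage/microglia-like cells was measured. The summed level of the 15 neutrophil markers there was 7546 CPM in sham replicate 1, 807 to 2011 CPM in the injured libraries and 216 CPM in sham replicate 2. In sham replicate 1 this was 2.35% of the level in the neutrophil-like cells of the same library, whose Tlr4 stood at 12.2 CPM. Sham replicate 2 had the lowest neutrophil marker level of all libraries and 16.2 CPM of Tlr4, beside 2.87 to 6.22 CPM in the injured libraries. The part of neutrophil RNA in the result was not tested.

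Tlr4 was also compared within both classes of these cells, whose shares differed between sham and injured libraries. In microglia-marker cells Tlr4 stood at 26.6 and 15.9 CPM in sham and at 3.84 to 9.09 CPM in the injured libraries, without overlap. But none of the 6 genes passed edgeR's test there in mild, moderate or severe against sham, where 0.956%, 0.202% and 1.32% of all genes were called. An unadjusted p under 0.05 was found for 2, 2 and 3 of the 6 genes, beside 2719, 1924 and 2122 of all 11400 tested genes. The log2 fold changes of Tlr4 there were -1.48 ± 0.40, -1.70 ± 0.41 and -1.67 ± 0.43. In macrophage-marker cells Tlr4 stood at 27.8 and 24.0 CPM in sham and at 2.05 to 5.50 CPM after injury. The fitted changes were -2.60 ± 0.38 in mild (edgeR adjusted p = 0.0131), -2.31 ± 0.37 in moderate (adjusted p = 0.0492) and -2.70 ± 0.39 in severe (adjusted p = 0.00949). In this class 2 of 5 tested genes were called in mild against sham and 1 of 5 in each of the other comparisons, beside 4.26%, 0.384% and 4.02% of all genes. The macrophage-marker cells of sham numbered only 108 and 63, and they differed from those of the injured libraries in other markers: summed conventional dendritic markers reached 888 and 850 CPM against 77.7 to 184 CPM, and summed neutrophil markers 20663 CPM in sham replicate 1. The part of these in the result was not tested.

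The 250 bases before the annotated start of Tlr4 are shown because Tlr4 was the gene that passed in all 3 injured groups, and the stretch before Tlr7 because it separated the cell classes below. Both are RefSeq sequences on build GRCr8, plus strand, chr5:85160997-85161246 for Tlr4 and chrX:30644176-30644323 for Tlr7, where the 148 bases outside the annotated gene are given. The build of the counts was Rnor_6.0, and no coordinate was carried between builds. Capitals mark GAGGAA on either strand, a core recognised by ETS factors such as PU.1, the myeloid regulator.
Tlr4: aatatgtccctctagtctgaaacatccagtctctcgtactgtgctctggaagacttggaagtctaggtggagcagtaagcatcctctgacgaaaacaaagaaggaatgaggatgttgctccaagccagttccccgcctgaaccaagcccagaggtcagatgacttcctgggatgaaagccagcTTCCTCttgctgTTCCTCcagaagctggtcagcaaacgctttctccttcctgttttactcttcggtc
Tlr7: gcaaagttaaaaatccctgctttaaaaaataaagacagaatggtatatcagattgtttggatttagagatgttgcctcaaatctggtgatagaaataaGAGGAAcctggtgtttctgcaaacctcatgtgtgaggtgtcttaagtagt
GAGGAA occurred at 2 places before Tlr4, beginning 67 and 55 bases before its start, and at 1 place before Tlr7, 50 bases before its start. Of 33469 promoters in the table, 23.3% held these letters in their 250 bases. The AP-1 type motif TGANTCA, present in 6.34% of promoters, and TATAAA, present in 12.9%, were not in either stretch. These shares are for 250 bases, not trimmed where they ran into a gene, whereas the Tlr7 stretch had only 148 bases. A match describes letters only and is not evidence of binding.

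Tlr7 was also higher in both sham libraries than in all injured libraries of macrophage/microglia-like cells, at 51.5 and 73.8 CPM against 20.6 to 35.1 CPM. Its log2 fold change was -1.25 ± 0.32 in mild (edgeR adjusted p = 0.0554), -0.89 ± 0.32 in moderate (adjusted p = 0.154) and -0.88 ± 0.32 in severe (adjusted p = 0.116), so no call was made. Without sham replicate 1 the values were -1.59, -1.24 and -1.22, and without sham replicate 2 the change in severe was -0.36. Both fits left 1 sham library, so the size depended on which was kept. Over all fits with 1 library left out, Tlr7 ran from -1.59 to -0.74 in mild and from -1.24 to -0.38 in moderate.

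Tlr2 went the other way. It stood at 68.8 and 66.6 CPM in sham, 132 and 87.8 CPM in mild, 85.5 and 142 CPM in moderate and 110 and 83.5 CPM in severe libraries, so every injured library was above both sham libraries. The 2 libraries of each injured group differed widely, and the log2 fold changes of 0.79 ± 0.32, 0.77 ± 0.32 and 1.00 ± 0.32 did not pass (edgeR adjusted p = 0.144, 0.196 and 0.085). The severe group had the largest fitted change but the lowest mean CPM of the injured groups (96.8, against 110 in mild and 114 in moderate). The order of the injured groups therefore depended on the scaling. In severe against sham Tlr2 was called by DESeq2 (0.99) and without a filter on low counts (1.01). Those settings called 17.6% and 13.4% of all genes, against 8.27% in the main fit.

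Cd14 was highest in the severe group, at 796 and 761 CPM, above every other library. The sham libraries had 489 and 175 CPM, the mild 466 and 287 CPM and the moderate 235 and 518 CPM, so those 3 groups overlapped. The log2 fold change in severe against sham was 1.80 ± 0.49 (edgeR adjusted p = 0.0623) and passed under DESeq2 (1.77), where 17.6% of all genes were called. Without sham replicate 1, which left 1 sham library, it was 2.50. In severe against mild it was 1.45 ± 0.49 (edgeR adjusted p = 0.163). In that comparison 0 of 6 genes were called by edgeR's quasi-likelihood test, beside 2.28% of all genes. An unadjusted p under 0.05 was found for 1 of the 6, beside 2694 of all 13489 tested genes. DESeq2 called Cd14 there, beside 8.35% of all genes, and so did edgeR with only these 2 groups in the fit, beside 7.94%.

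Myd88 and Tlr9 showed no change that passed. Myd88 lay between 31.2 and 57.6 CPM in all 8 libraries, and its log2 fold changes were 0.16 ± 0.23, 0.47 ± 0.23 and 0.12 ± 0.23 in mild, moderate and severe (edgeR adjusted p = 0.671, 0.261 and 0.744), with the last turning to -0.40 when only library size was used for scaling. That scaling moved the median of all genes in severe against sham from -0.08 to -0.57, and the share of higher among called genes from 62.9% to 17.6%. Tlr9 was between 0.17 and 1.35 CPM, and its log2 fold changes had standard errors of 0.78 to 0.79.

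**Figure D3:**
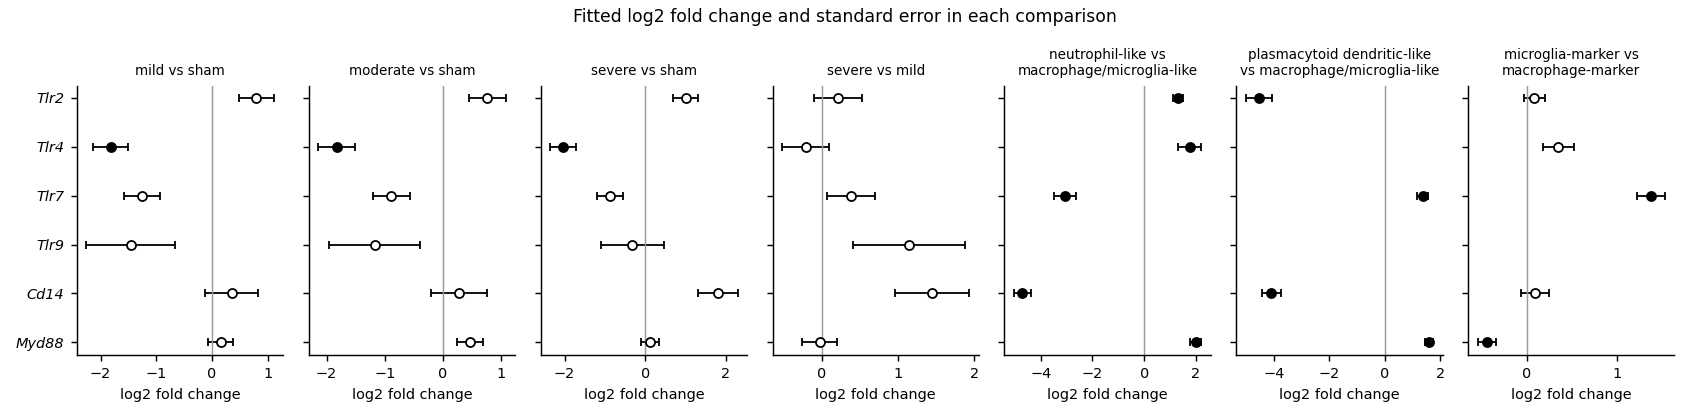
Fitted log2 fold change of each gene with its standard error in the 7 comparisons; filled points had an adjusted p under 0.05 and genes without a point were not tested, except Tlr4 in plasmacytoid dendritic-like cells, which had no UMI there. Of the injury comparisons, Tlr4 has the filled points at -1.82, -1.83 and -2.03.

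The other genes of the pathway were taken from a list of 74 genes in 7 roles, of which 71 were found and 67 tested in these cells. In severe against sham 5 of them rose and 1 fell, 8.96% of those tested beside 8.27% of all genes, so the share was close to the background. Il1b, the proinflammatory cytokine induced by Toll-like receptor signalling, had 1774 and 3162 CPM in the severe libraries against 73.9 and 289 CPM in sham, and rose by 4.18 ± 0.75 on the log2 scale (edgeR adjusted p = 0.0201). Rel, an NF-kappaB subunit, had 76.3 and 103 CPM against 22.6 and 25.7 CPM and rose by 2.38 ± 0.29 (adjusted p = 0.00569). Nfkb2, another subunit, rose by 2.28 ± 0.43 (adjusted p = 0.0229), from 11.6 and 14.4 CPM to 50.7 and 41.6 CPM. S100a9, a reported Tlr4 ligand made in quantity by neutrophils and a neutrophil gate marker, fell by 5.05 ± 1.21 (adjusted p = 0.0434). It stood at 2145 and 88.3 CPM in sham and at 32.0 and 11.9 CPM in severe libraries, so the size of its fall rested on sham replicate 1, the library with the highest neutrophil marker level; it was -1.70 without that library and -5.95 without sham replicate 2.

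By role, 2 of 8 transcription factors, 2 of 19 adaptors and kinases and 1 of 11 induced cytokines and chemokines rose in severe against sham, and none of the 7 other Toll-like receptors, 7 accessory and trafficking proteins or 9 negative regulators passed edgeR's test in either direction. The median log2 fold change was 0.73 for the transcription factors, 1.12 for the negative regulators and 0.75 for the cytokines and chemokines, beside -0.08 for all genes. It was 0.09 for the adaptors and kinases and -0.36 for the other Toll-like receptors. The accessory and trafficking proteins had -0.48 and the reported endogenous ligands -0.62. In mild against sham 1 gene of the list rose and 3 fell, 5.97% of those tested beside 6.16% of all genes. In moderate against sham 2 rose and 1 fell, 4.48% beside 2.33% of all genes. Btk, a kinase that works with Toll-like receptors, fell by 2.18 ± 0.42 in the mild group (edgeR adjusted p = 0.031), from 39.1 and 64.5 CPM in sham to 10.4 and 11.6 CPM. In severe against mild 3 of 67 rose, 4.48% beside 2.28% of all genes, among them Il1b by 4.09 ± 0.75 (adjusted p = 0.0373) and Rel by 2.12 ± 0.28 (adjusted p = 0.0111). This comparison was also fitted within each class, after seeing the data. In microglia-marker cells 3 of 61 rose and none fell, 4.92% beside 2.38% of all genes. In macrophage-marker cells 11 of 64 rose and none fell, 17.2% beside 4.41% of all genes. Those 11 were 5 of 9 cytokines and chemokines, 3 of 9 negative regulators, 2 of 8 transcription factors and 1 of 18 adaptors and kinases. In macrophage-marker cells 0 of 5 tested members passed edgeR's test. An unadjusted p under 0.05 was found for 2 of the 5, beside 2632 of all 12235 tested genes. Without sham replicate 1 or 2 the change of Il1b against sham was 3.46 or 5.77, and that of Btk was -2.59 or -1.53. Those fits left 1 sham library each. The calls of Il1b and Nfkb2 against sham were lost without severe replicate 1 (4.59 and 2.21) or severe replicate 2 (3.62 and 2.35), and that of Btk without either mild or either moderate library (-2.27 to -2.09). In severe against mild, Il1b was lost without any 1 of the 6 injured libraries (3.52 to 4.48) and Rel without mild replicate 1 or 2 or severe replicate 2 (1.79 to 2.12). The fall of S100a9 was lost without any 1 of the 6 injured libraries (-5.83 to -4.56) and with the replicate block (-4.70). With only the 2 groups compared in the fit, Btk, Il1b, Rel, Nfkb2 and S100a9 all lost their calls against sham.

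The second question was how the myeloid classes differed from each other in the same library. Neutrophil-like and macrophage/microglia-like cells were compared in the 7 libraries with at least 20 cells of both, with the library as a term. All 5 tested genes differed, beside 66.2% of all genes. Myd88 had 112 CPM or more in the neutrophil-like cells of each library and at most 57.6 CPM in the macrophage/microglia-like cells, and was higher by 1.99 ± 0.22 on the log2 scale (edgeR adjusted p = 5.4e-08). Tlr2 was higher by 1.30 ± 0.20 (adjusted p = 7.25e-06) and Tlr4 by 1.76 ± 0.44 (adjusted p = 0.00121). Tlr4 had 216 UMIs in all neutrophil-like cells, and its difference ran from 1.36 to 2.34 with 1 library left out. For Tlr4 the order was not the same in every library: in sham replicate 1 the neutrophil-like cells had 12.2 CPM against 26.8 CPM, and in mild replicate 2, with 78 neutrophil-like cells, they had no UMI. In the 5 other libraries they had 8.55 to 40.1 CPM against 2.87 to 6.22 CPM.

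Cd14 and Tlr7 were lower in neutrophil-like cells. Cd14 stood at 6.07 to 54.2 CPM there and was lower, with a log2 difference of -4.71 ± 0.33, than in macrophage/microglia-like cells (edgeR adjusted p = 5e-11). Tlr7 had no UMI in the neutrophil-like cells of 4 of the 7 libraries and a fitted difference of -3.06 ± 0.44 (adjusted p = 2.72e-06). Tlr9 was not tested, with 0 UMIs in neutrophil-like cells. Of 57 tested genes of the pathway list 25 were higher and 16 lower, 71.9% beside the 66.2% of all genes. Ly86, which pairs with the receptor homologue Cd180, was lower (-4.51 ± 0.30, edgeR adjusted p = 1.78e-11), and the chemokine Ccl4 was lower (-4.10 ± 0.31, adjusted p = 1.69e-10). S100a9 and S100a8 had the largest differences, 9.77 and 8.60, but both were used to find the neutrophil-like cells.

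Plasmacytoid dendritic-like cells could be compared in the 6 injured libraries, and all 5 tested genes differed from macrophage/microglia-like cells, beside 55.6% of all genes. Tlr7 stood at 93.7 and 167 CPM in mild, 173 and 100.1 CPM in moderate and 70.1 and 66.1 CPM in severe libraries, above the macrophage/microglia-like cells in all 6, and was higher by 1.37 ± 0.20 (edgeR adjusted p = 1.37e-05). Myd88 was higher by 1.59 ± 0.14 (adjusted p = 3.88e-08), with 111 to 279 CPM. Tlr2 was lower (-4.53 ± 0.48, adjusted p = 2.95e-07), as was Cd14 (-4.09 ± 0.34, adjusted p = 1.51e-08). Tlr2 had 17 UMIs in all plasmacytoid dendritic-like cells, so its fitted size is loose. It ran from -5.32 to -3.96 with 1 library left out. Tlr4 was called lower (adjusted p = 5.94e-04), and against 3 counts over the 6 libraries, or 1.15 CPM, the 5.02 CPM of macrophage/microglia-like cells make it at least 4.39-fold lower.

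Tlr9 was filtered out of that comparison. It was called higher when no filter on low counts was used, where 31.4% of all genes were called against 55.6% in the main fit. Pooled over the 6 libraries it had 11 UMIs in plasmacytoid dendritic-like and 117 UMIs in macrophage/microglia-like cells, or 4.20 and 0.38 CPM, a ratio of 11.1 with an exact 95% counting interval of 5.39 to 20.6. Among 55 tested genes of the pathway list 13 were higher and 23 lower, 65.5% beside the 55.6% of all genes. All 6 tested cytokines and chemokines were lower, led by Cxcl10 (-6.74 ± 0.44, edgeR adjusted p = 5.5e-10), Il1b (-5.12 ± 0.41, adjusted p = 8.98e-09) and Ccl3 (-4.15 ± 0.37, adjusted p = 3.49e-08). Tlr13 was lower as well (-4.94 ± 0.45, adjusted p = 4.75e-08), as were the other 3 receptors of the list that could be tested. Cxcl10 and Tlr13 rest on 2 and 4 UMIs in the plasmacytoid dendritic-like cells, so their fitted sizes are loose. Pooled over the 6 libraries the macrophage/microglia-like level was 66.4 times as high for Cxcl10 (exact 95% counting interval 18.4 to 549) and 28.6 times as high for Tlr13 (11.2 to 105).

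The last comparison was between microglia-marker and macrophage-marker cells of the same library, in all 8 libraries. Tlr7 and Myd88 differed, 2 of 5 tested genes beside 54.5% of all genes. Tlr7 was higher in the microglia-marker cells of every library, at 34.1 to 76.8 CPM against 10.5 to 60.1 CPM, and the difference was 1.37 ± 0.16 on the log2 scale (edgeR adjusted p = 1.14e-05). Myd88 was lower (-0.45 ± 0.10, adjusted p = 0.00257), in 6 of 8 libraries on the CPM scale; both moderate libraries had the opposite order. Tlr2 (0.08 ± 0.12), Tlr4 (0.35 ± 0.17) and Cd14 (0.09 ± 0.15) did not pass (edgeR adjusted p = 0.589, 0.105 and 0.651). Tlr4 was called when only library size was used for scaling, where 62.3% of all genes were called against 54.5% in the main fit.

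**Figure D4:**
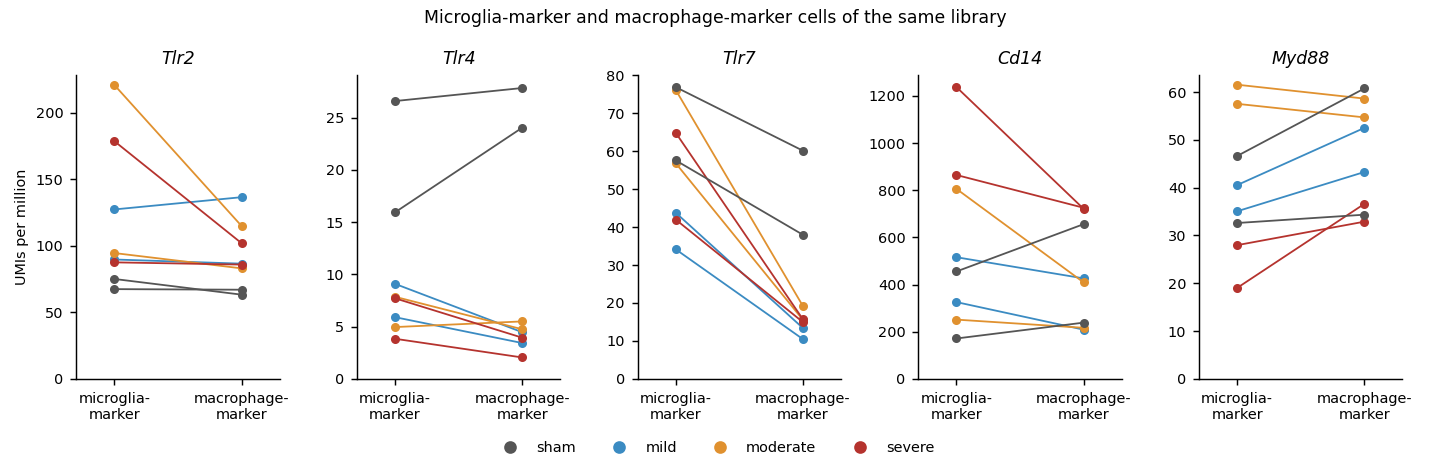
Level of 5 genes (CPM, linear axis from 0) in microglia-marker and macrophage-marker cells, with a line joining the classes of each library, coloured by injury group. All 8 lines fall for Tlr7, and the 2 sham libraries stand apart from the rest for Tlr4 in both classes.

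Of 60 tested genes of the pathway list 24 were higher and 13 lower in microglia-marker cells, 61.7% beside the 54.5% of all genes. Cxcl10 was higher by 2.42 ± 0.28 (edgeR adjusted p = 1.09e-05) and Ccl4 by 2.36 ± 0.30 (adjusted p = 2.62e-05), both chemokines. Tlr3, the endosomal receptor for double-stranded RNA, was higher by 1.47 ± 0.09 (adjusted p = 8.49e-08), with 20.3 to 98.7 CPM against 7.33 to 25.8 CPM. Ptgs2, the inducible prostaglandin synthase, was lower (-1.64 ± 0.34, adjusted p = 0.00137). By role, 7 of 9 tested cytokines and chemokines and 5 of 8 transcription factors were higher, with medians of 1.24 and 0.29 beside 0.05 for all genes.

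The injury effect on Tlr7 was then compared between the classes. In macrophage-marker cells Tlr7 stood at 38.0 and 60.1 CPM in sham and at 10.5 to 19.2 CPM after injury, and it passed in mild against sham (-1.88 ± 0.32, edgeR adjusted p = 0.0218). In microglia-marker cells it was 57.5 and 76.8 CPM in sham and 34.1 to 76.1 CPM after injury, with overlap. A term for the difference of the injury effects, added after seeing the data, was -1.16 ± 0.21 for Tlr7 (edgeR adjusted p = 0.0225), and 1 of 6 genes was called beside 1.24% of all genes. This call was lost without sham replicate 1 (-1.15) or sham replicate 2 (-1.28). For Tlr4 the same term was -0.90 ± 0.33 and did not pass (adjusted p = 0.242).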

How the data were processed

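The deposited files hold UMI counts per gene and cell, which the authors made with Cell Ranger (5.0.1 in the file headers; the methods name another version). The submitters' notes also list Seurat and the build Rnor_6.0. No normalization had been applied to the counts. Within each library, cells with over 10% mitochondrial UMIs, the 7.7% with the highest Scrublet doublet scores (scanpy 1.11.5) and cells beyond 2 SD of the mean UMIs or genes were left out. A cell was gated where at least 3 distinct markers of a type had a UMI and the share of detected markers led the next type by 0.15 or more. Of 179 markers 171 were found. The members, markers and pathway list were chosen with earlier results of these data known, and the gate was set with the data in view.

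Counts were summed per library and type where at least 20 cells were present, and tested with edgeR 4.0.16 in R 4.3.3 (TMM scaling, quasi-likelihood test, Benjamini-Hochberg adjustment over all tested genes, threshold 0.05). The SE is the absolute log2 fold change divided by the square root of F. DESeq2 1.42.0 was an alternative. The fits within microglia-marker and macrophage-marker cells and the difference of injury effects were added after seeing the data. All members were named, with up to 4 other pathway genes per comparison, those of largest change past the threshold at 20 CPM or more, and for each member the 3 genes of most similar pattern. The procedure was tested on simulated data whose spread was taken from these fits, which cannot show whether a call rests on 1 library.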

Additional observations from a re-analysis of the deposited data

Results flagged for a closer look

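The injury effect on Tlr7 differed between the classes of macrophage/microglia-like cells in a test of the difference itself. The log2 fold change of injured against sham in macrophage-marker cells minus that in microglia-marker cells was -1.16 ± 0.21 (edgeR's quasi-likelihood test with Benjamini-Hochberg adjustment, adjusted p = 0.0225). Tlr8, which lies next to Tlr7, differed in the same test by -1.80 ± 0.28 (adjusted p = 0.0114). It was the only 1 of 65 tested genes of the pathway list to be called, 1.54% beside 1.24% of all genes. Tlr8 stood at 43.9 and 53.2 CPM in the macrophage-marker cells of sham and at 4.08 to 13.2 CPM in those of the injured libraries, without overlap, and at 2.60 to 10.4 CPM in the microglia-marker cells of all libraries. It was named after its values were seen. Its call was lost without sham replicate 1 (-1.51), and that of Tlr7 without sham replicate 1 or 2. The macrophage-marker cells of sham numbered 108 and 63 and carried 888 and 850 CPM of summed conventional dendritic markers against 77.7 to 184 CPM after injury, and the part of these cells in either result was not tested.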

How the results depend on the processing

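The count of the 6 genes called against sham (1 in each group) became 2 in mild and severe with library size alone, 2 and 3 with DESeq2, and 2 and 3 without a filter on low counts. Over all genes these settings called 5.75% and 17.2%, 16.9% and 17.6%, and 13.1% and 13.4%, against 6.16% and 8.27%. The genes added were Tlr7 in mild, Tlr7 in severe with library size alone, and Tlr2 and Cd14 in severe with the other settings. It was 0 in all 3 groups with only the 2 groups compared and in microglia-marker cells, and 2 in mild in macrophage-marker cells. With 1 library left out, which left 1 library in a group, Tlr4 ran from -1.98 to -1.59 in mild. It ran from -2.00 to -1.61 in moderate and from -2.29 to -1.80 in severe, and its call was lost in some of these fits. Without sham replicate 1, which left 1 sham library, Tlr7 was -1.59, -1.24 and -1.22 in mild, moderate and severe, and Cd14 was 2.50 in severe. In severe against mild the count of genes called became 1 with DESeq2, without a filter and with only the 2 groups compared. There 8.35%, 7.7% and 7.94% of all genes were called against 2.28%. The difference of injury effects for Tlr7 ran from -1.30 to -1.13 with 1 library left out, and its call was lost without sham replicate 1 or 2. The cause of these changes was not tested.

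Directions turned only for genes that had not passed. Leaving out 1 library gave Cd14 -0.08 to 1.06 in mild and -0.40 to 0.97 in moderate, and in severe Tlr9 -1.07 to 0.26 and Myd88 -0.0202 to 0.33. In severe against mild it gave Tlr2 -0.053 to 0.51, Tlr4 -0.51 to 0.0117 and Myd88 -0.15 to 0.0814. Between microglia-marker and macrophage-marker cells it gave Tlr2 -0.0396 to 0.13 and Cd14 -0.0257 to 0.16, and for the difference of injury effects Tlr2 -0.16 to 0.0883, Tlr9 -2.45 to 4.11 and Myd88 -0.24 to 0.45. Library size alone gave Myd88 -0.40 in severe against sham, and Tlr2 -0.18 and Tlr7 -0.0199 in severe against mild. In macrophage-marker cells Cd14 was -0.38 in mild and -0.49 in moderate and Myd88 was -0.0094 in severe. In microglia-marker cells Myd88 was -0.059 in mild and -0.36 in severe, and Tlr9 was 0.55 in severe.

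Thinning to 500 UMIs gave shares of 4.92% for Tlr2, 0.49% for Tlr4, 1.80% for Tlr7, 18.7% for Cd14 and 2.21% for Myd88. Without thinning they were 56.1%, 8.51% and 28.5% for the receptors, 0.557% for Tlr9, 78.2% for Cd14 and 36.7% for Myd88. With the replicate number as a replicate block Tlr4 was -1.81, -1.83 and -2.04 and was still called in all 3 groups, while calls over all genes went from 831, 314 and 1116 to 337, 131 and 658. Deviations of same-numbered libraries correlated at -0.37 to 0.31, positive among sham, mild and severe and negative between moderate and each of these. Such mixed signs cannot decide whether the numbers pair the libraries. With 2 libraries a group, whether Tlr2, Tlr7 and Cd14 passed depended on the setting, and the UMIs of Tlr9 were too few for a level in most types.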
